A study of Mus musculus with 8 samples.

Results

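Integrins are adhesion receptors built from an α and a β chain, and the pairing decides what a cell can hold on to. On lymphocytes, the αL chain pairs with β2 to bind intercellular adhesion molecules, α4 pairs with β1 to bind VCAM and fibronectin or with β7 to bind the mucosal addressin MAdCAM, αE pairs with β7 to bind E-cadherin, and α6 pairs with β1 or β4 to bind laminins. The genes Itga4, Itga6, Itgae, Itgal and Itgav for α chains and Itgb1, Itgb2, Itgb3, Itgb4 and Itgb7 for β chains, 10 of the 29924 gene names on the arrays, were followed here through 4 types of CD4 T cells from peripheral lymph nodes (pLN). They were taken by gene name, and the probe whose log2 level averaged highest stands for the gene. All 10 were tested, 8 of them being well above background on every array, while Itgae and Itgb4 entered through the cell types in which they were brighter.

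The mice were B6.Cg-Foxp3<tm1Mal> animals of mixed sex and 8 to 14 weeks of age, in which Foxp3+ cells carry EGFP, and all of them were immunized subcutaneously with keyhole limpet hemocyanin (KLH) and alum. Cells from pools of 8 to 15 mice were sorted at d12 or d25 post immunization (p.i.) as naïve CD4 T cells (EGFP-, PD1-, GL7-), T follicular helper cells (TFH; EGFP-, PD1 high, GL7+), regulatory T cells (Treg; EGFP+, PD1-, GL7-) and T follicular regulatory cells (TFR; EGFP+, PD1 high, with and without GL7). The GL7 gate therefore differed between TFH and TFR cells, and naïve cells were defined by the absence of EGFP, PD1 and GL7. Each cell type was hybridized once at each day in this series, which gives 8 one-color arrays and 2 arrays (d12 and d25) per cell type. The authors report more sorted pools per cell type and day than these arrays. Cell type and day were both fitted. The p-values therefore measure how far the d12 to d25 change varied between cell types, after the mean day shift was removed.

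Levels are given in relative units (RU) of normalized intensity with a floor of 20 RU. They compare 1 probe between cell types but not 1 gene with another. A difference was called at a limma adjusted p below 0.05 (Benjamini-Hochberg over 15764 genes). In sorted bulk samples, fewer cells carrying a transcript and less RNA per cell cannot be told apart. The 5 T cell markers on the array were well above background everywhere. The summed Treg markers were 99414 to 119487 RU in Treg and TFR cells. They were 10860 and 11232 RU in TFH cells and 773 and 771 RU in naïve cells. The summed follicular markers were 633078 and 840628 RU in TFH cells and 238095 and 301269 RU in TFR cells. Naïve and Treg cells had 24312 to 52429 RU. Summed naïve markers were 386586 to 455619 RU in naïve and Treg cells. For these, TFR cells had 84136 and 55032 RU and TFH cells 19180 and 21711 RU. Their bearing on the TFR levels of the chains was not tested. B cell markers summed to 16042 RU on the d25 TFH array against 5483 to 10062 RU elsewhere, with 7 of 8 of them well above background there, 3 to 5 of 8 on the others and Pax5 at the floor on all arrays. NK cell markers summed to 4606 RU on the d25 TFH array against 504 to 1918 RU elsewhere. B220+ cells had been gated out, and the part of the B cell and NK cell markers in the results on the d25 TFH array was not tested. A slide held the 4 d12 arrays, another naïve and TFH cells of d25 and the third Treg and TFR cells of d25. TFH and naïve cells, and likewise TFR and Treg cells, were therefore compared within slides, whereas the comparisons of TFR with TFH cells and of Treg with naïve cells crossed slides at d25.

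In TFH cells all 10 chains differed from naïve CD4 T cells, with 5 higher (Itgal, Itgav, Itgb1, Itgb2, Itgb4) and 5 lower (Itga4, Itga6, Itgae, Itgb3, Itgb7). Among all genes tested, 46.5% were called in this comparison, 20.9% as higher and 25.6% as lower. In TFR cells 6 chains differed from Treg cells, with Itgal, Itgb1 and Itgb4 higher and Itga6, Itgb3 and Itgb7 lower. The background was 39.6% of genes called, 18.7% higher and 20.9% lower. Between the follicular cell types 9 chains differed, with Itga4, Itga6, Itgae, Itgb1, Itgb3 and Itgb7 higher in TFR cells and Itgal, Itgb2 and Itgb4 higher in TFH cells, against 22.1% of all genes (11.6% higher and 10.5% lower in TFR cells). Treg cells differed from naïve cells in 3 chains, Itgae, Itgal and Itgb1, all higher in Treg cells, against 9.88% of all genes (5.89% higher and 3.98% lower). No chain was called lower in Treg cells by limma, 1 (Itgb3) having an unadjusted p below 0.05. The median log2 difference over the 10 chains was -0.46 in TFH versus naïve cells and 0.045 in TFR versus Treg cells, where the medians over all genes were -0.07 and -0.08.

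**Figure D1:**
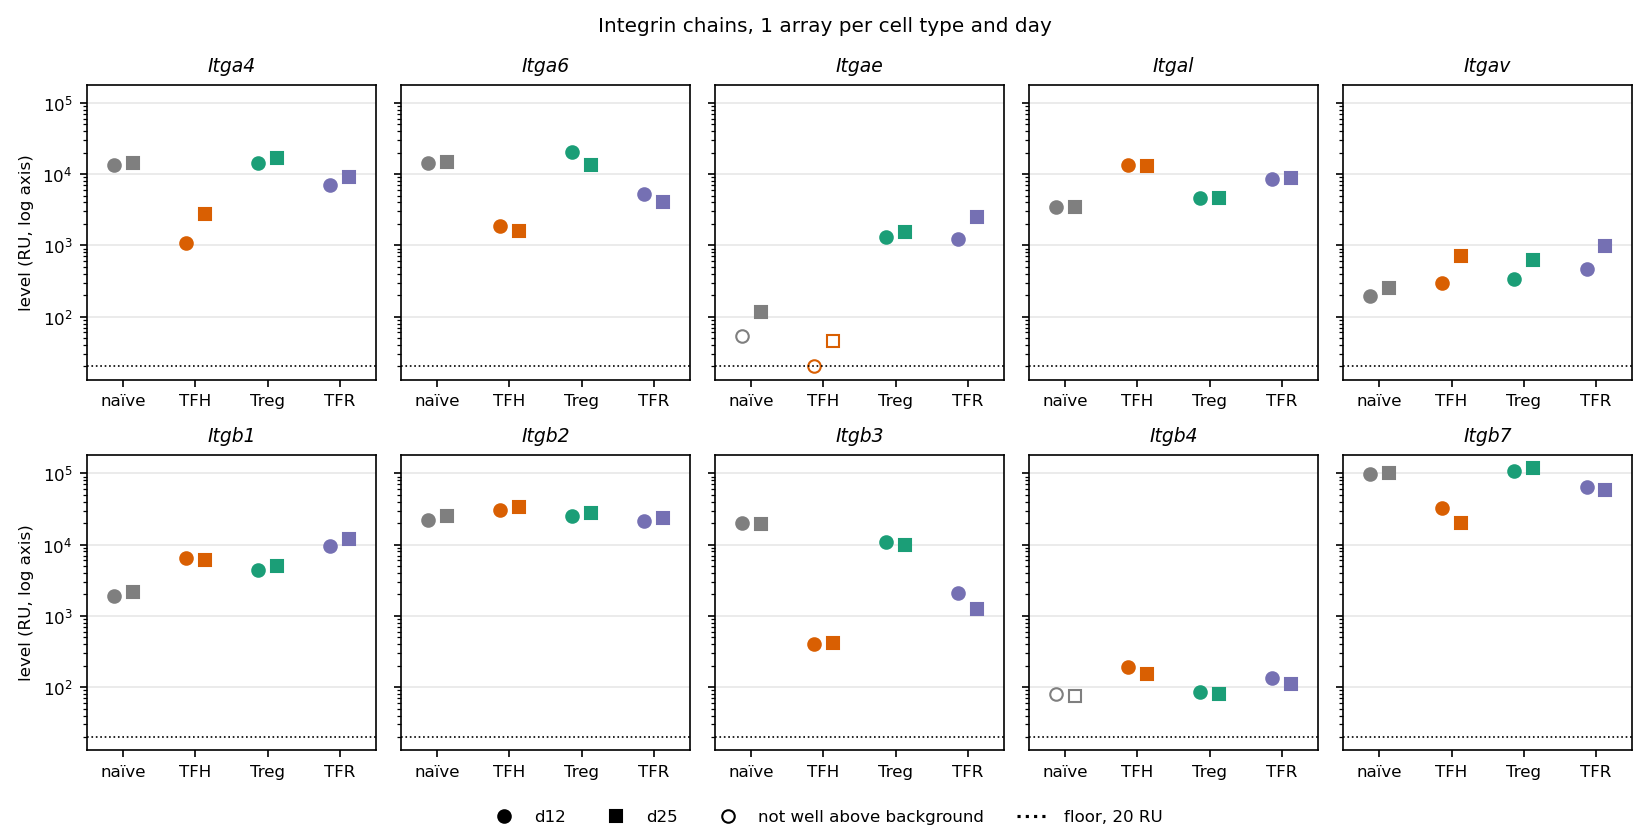
Levels of the 10 integrin chains (RU, log axis) on each array, with 1 point per cell type and day (circles d12, squares d25) and hollow points where the probe was not well above background. Itgb3 falls from 19935 and 19186 RU in naïve cells to 406 and 422 RU in TFH cells, whereas Itgb2 stays between 21505 and 34030 RU. Heights are comparable within a panel only.

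Itga4 and Itgb7 encode the chains of the gut-homing receptor. The probe of Itga4 lies on chromosome 2 at 79173193 to 79173252 (build NCBI37, plus strand), and that of Itgb7 on chromosome 15 at 102046450 to 102046509 (minus strand). The upstream sequences of both genes and of Itgb1 are shown because α4 shares these β chains while Itgb7 and Itgb1 moved in opposite directions in follicular cells. Each is the 250 bases before a RefSeq start (GRCm38.p6, written 5′ to 3′ on the strand of the gene), with CACCC, a box bound by Krüppel-like factors, in capitals on either strand (GGGTG where it lies on the other strand).
Itga4, chr2:79255176-79255425, plus strand: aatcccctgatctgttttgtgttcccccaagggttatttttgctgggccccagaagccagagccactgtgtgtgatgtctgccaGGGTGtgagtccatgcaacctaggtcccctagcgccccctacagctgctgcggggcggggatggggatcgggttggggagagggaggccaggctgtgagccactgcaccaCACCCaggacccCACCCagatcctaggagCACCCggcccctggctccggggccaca
Itgb7, chr15:102231936-102232185, minus strand: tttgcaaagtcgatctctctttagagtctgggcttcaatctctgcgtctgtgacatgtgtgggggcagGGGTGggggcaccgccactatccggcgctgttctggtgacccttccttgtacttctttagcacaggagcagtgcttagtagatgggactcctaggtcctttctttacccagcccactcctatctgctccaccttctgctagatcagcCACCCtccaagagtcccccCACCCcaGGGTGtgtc
Itgb1, chr8:128685404-128685653, plus strand: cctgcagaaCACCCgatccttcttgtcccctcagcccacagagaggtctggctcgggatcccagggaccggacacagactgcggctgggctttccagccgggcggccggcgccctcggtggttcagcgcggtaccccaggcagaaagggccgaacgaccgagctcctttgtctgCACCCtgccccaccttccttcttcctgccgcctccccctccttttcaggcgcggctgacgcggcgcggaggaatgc
The window of Itga4 holds CACCC 4 times, that of Itgb7 4 times and that of Itgb1 2 times, and 52% of all 32851 promoter windows of this length hold it at least once. The Runx core TGTGGT occurs once in the window of Itga4, on the reverse strand, and not in those of Itgb7 and Itgb1, against 14% of all windows. The GC box GGGCGG occurs once each in the windows of Itga4 and Itgb1, against 32.7%. None of the 3 motifs shares letters with another at these positions except TGTGGT of Itga4, whose complement ends inside the first forward CACCC. The match is a description of the sequence.

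Itga4 was lowest in TFH cells. It measured 13458 RU (d12) and 14386 RU (d25) in naïve cells and 14230 and 16781 RU in Treg cells, against 1089 and 2721 RU in TFH cells. TFR cells lay between them with 6983 and 9155 RU, without overlapping any other cell type. Both TFH arrays were below all others, and the d25 TFH array, the one with the most B cell and NK cell marker signal, read higher than that of d12. TFH cells were 8.08-fold lower than naïve cells (log2 difference -3.015, SE 0.32, adjusted p = 0.00207) and 4.65-fold lower than TFR cells (log2 difference 2.22 for TFR minus TFH, SE 0.32, adjusted p = 0.0114). The latter call was lost without the d12 TFR array (2.135, adjusted p = 0.0992) and without the d25 TFR array (2.30, adjusted p = 0.0796), and also when dim probes were not filtered out (adjusted p = 0.0774). TFR minus Treg was -0.95 (95% CI -1.77 to -0.13, adjusted p = 0.068), which did not pass. It did pass without the d12 or the d25 TFH array (-0.95, adjusted p = 0.00848 each), where TFH arrays enter only through the estimate of the spread. Treg and naïve cells, whose arrays overlapped, were neighbours in the order of levels (0.15, 95% CI -0.67 to 0.97). Another Itga4 probe was on 0 of 8 arrays well above background.

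Itgb7 followed the same order of cell types. Naïve cells had 96421 and 100499 RU and Treg cells 108834 and 116802 RU. TFR cells had 63803 and 57430 RU and TFH cells 32521 and 20043 RU. No cell types overlapped, the d25 TFH array being the lowest, while Treg and naïve cells did not differ beyond their spread (0.20, 95% CI -0.37 to 0.76). TFH cells were 3.86-fold lower than naïve cells (log2 difference -1.95, SE 0.22, adjusted p = 0.00255), and TFR cells were 1.86-fold lower than Treg cells (-0.90, SE 0.22, adjusted p = 0.0302). The difference in TFR cells was -0.77 within d12 and -1.02 within d25, and its call was lost without the d12 Treg array (-1.08), the d12 TFR array (-0.88), the d25 Treg array (-0.715) or the d25 TFR array (-0.91), with adjusted p up to 0.156, as well as with slide as a block (adjusted p = 0.0502) and without the filter on dim probes (adjusted p = 0.128). TFR cells were 2.37-fold above TFH cells (1.245, SE 0.22, adjusted p = 0.0196), a call that was lost without the d12 TFR array (1.26, adjusted p = 0.128), without the d25 TFR array (1.23, adjusted p = 0.123), with slide as a block (1.10) and without the filter (adjusted p = 0.102). Within d12, on a single slide, that difference was 0.97.

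Itgae, the αE chain known as CD103 and the other partner of β7, separated Foxp3+ from Foxp3- cells. Its probe crosses an exon junction, covering chromosome 11 between 72945236 and 72946221 (NCBI37, plus strand), and is shown as its single reporter on the array.
Itgae probe: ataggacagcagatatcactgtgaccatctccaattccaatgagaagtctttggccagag
Treg cells had 1297 and 1515 RU and TFR cells 1228 and 2514 RU. TFH cells had 20 and 45 RU, not well above background on either array, and naïve cells had 53 RU (not well above background) and 118 RU. All Foxp3+ arrays lay above all Foxp3- arrays, and Treg and TFR arrays overlapped. TFR cells were at least 41.9-fold above TFH cells (adjusted p = 0.000691) and Treg cells at least 15.7-fold above naïve cells (adjusted p = 0.00223), both calls being kept under all alternatives run. Here a bound sets the measured mean of the bright cell type against a mean in which each dim array counts at least with the lowest signal well above background. TFR minus Treg was 0.33 (95% CI -0.35 to 1.00, adjusted p = 0.367). It was -0.08 within d12 and 0.73 within d25, and among the alternatives it was called only without the d12 Treg array (0.774). The lower reading of TFH than of naïve cells (adjusted p = 0.0121) has no fold, since neither cell type was measured on both arrays, and was not called with a floor of 50 (adjusted p = 0.156), after normexp background correction, without the d12 TFH array (adjusted p = 0.0681) or without the d25 naïve array (adjusted p = 0.0735).

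Itgb1, the β chain shared by the receptors for fibronectin, VCAM and laminin, rose in both follicular cell types. Its brightest probe crosses an exon junction on chromosome 8 between 131250081 and 131255976 (NCBI37, plus strand).
Itgb1 probe: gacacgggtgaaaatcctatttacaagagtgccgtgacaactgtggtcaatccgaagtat
Naïve cells had 1897 and 2186 RU and Treg cells 4381 and 5067 RU. TFH cells had 6546 and 5986 RU and TFR cells 9436 and 11903 RU. Both TFR arrays were the highest and both naïve arrays the lowest, and TFH minus Treg (0.41, 95% CI 0.06 to 0.76, adjusted p = 0.0665) did not pass. TFH cells were 3.07-fold above naïve cells (log2 difference 1.62, SE 0.13, adjusted p = 0.00107), and TFR cells were 2.25-fold above Treg cells (1.17, SE 0.13, adjusted p = 0.00414). The other Itgb1 probe, at 131246349 to 131246408, gave 1.25 for TFR minus Treg (adjusted p = 0.00745). Treg cells were 2.31-fold above naïve cells (1.21, SE 0.13, adjusted p = 0.00986) and TFR cells 1.69-fold above TFH cells (0.76, SE 0.13, adjusted p = 0.0204). These last calls cross slides at d25. With slide as a block both were lost (1.09 and 0.64), as they were without the filter on dim probes (adjusted p = 0.0622 and 0.0832), without the d12 Treg array (1.25 and 0.76), without the d25 Treg array (1.17 and 0.76), for TFR minus TFH without the d12 TFR array (0.88) or the d25 TFR array (0.64), and for Treg minus naïve without the d12 naïve array (1.18) or the d25 naïve array (1.24). Within d12, on a single slide, the differences were 1.21 for Treg minus naïve and 0.53 for TFR minus TFH.

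Itga6, the laminin-binding α chain, was lower in follicular cells by its brightest probe, and its probes disagreed on TFR cells. The probes lie on chromosome 2 at 71694756 to 71694815 (brightest) and at 71690633 to 71690692 (NCBI37, plus strand), the latter being assigned to a transcript of its own by the array design. The first 30 bases of each are shown because the result depends on the probe.
Itga6 brightest probe: gagaatgagaacctgggaggtcttgttgtt
Itga6 other probe: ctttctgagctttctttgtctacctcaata
With the brightest probe, naïve cells had 14168 and 14742 RU and Treg cells 20225 and 13279 RU. TFR cells had 5251 and 4102 RU and TFH cells 1858 and 1613 RU. Naïve and Treg arrays overlapped (Treg minus naïve 0.18, 95% CI -0.27 to 0.63), and TFR and TFH arrays were below them and apart. TFH cells were 8.35-fold below naïve cells (-3.06, SE 0.17, adjusted p = 0.000382) and TFR cells 3.53-fold below Treg cells (-1.82, SE 0.17, adjusted p = 0.00263). TFR cells were 2.68-fold above TFH cells (1.423, SE 0.17, adjusted p = 0.00739), a call lost without the d12 TFR array (1.37, adjusted p = 0.0749), without the d25 TFR array (1.475, adjusted p = 0.0607) and without the filter on dim probes (adjusted p = 0.0534). The other probe read 2015 and 1939 RU in naïve, 531 and 873 RU in TFH, 1534 and 1578 RU in Treg and 1446 and 1828 RU in TFR cells. It was called lower in TFH than in naïve cells as well (-1.54, adjusted p = 0.00443). Its TFR arrays enclosed its Treg arrays, with a difference of 0.06 (adjusted p = 0.834).

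**Figure D2:**
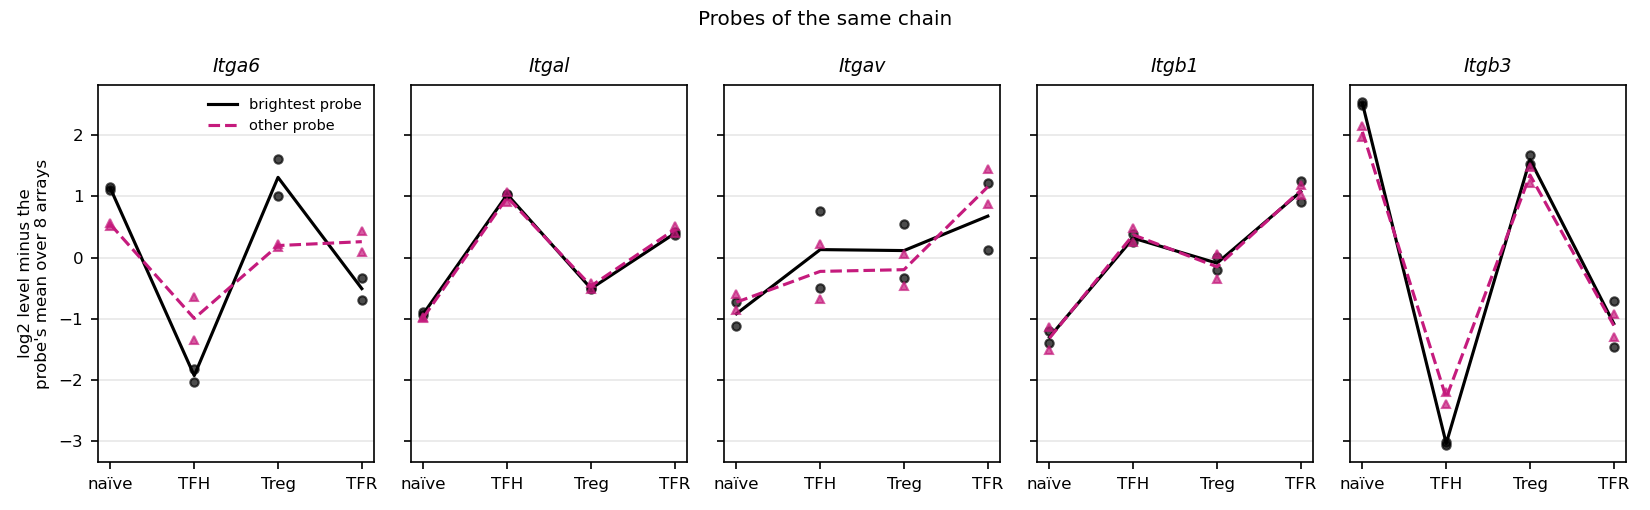
Log2 level minus the mean of the probe over the 8 arrays, for the 5 chains with another probe that was well above background on at least 4 arrays. Lines join cell type means and points are arrays (circles and solid line brightest probe, triangles and dashed line other probe). The probes of Itgal and Itgb1 rank the cell types alike, the other probe of Itgb3 was not well above background in TFH and TFR cells, and for Itga6 the TFR arrays lie below the Treg arrays with the brightest probe (-1.82) and level with them with the other (0.06).

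Itgal and Itgb2 encode both chains of LFA-1, the receptor for intercellular adhesion molecules. The Itgal probe lies on chromosome 7 at 134477160 to 134477219 and the Itgb2 probe on chromosome 10 at 77027978 to 77028037 (both NCBI37, plus strand). Itgal was 3495 and 3397 RU in naïve, 4556 and 4610 RU in Treg, 8430 and 8706 RU in TFR and 13451 and 13167 RU in TFH cells. No cell types overlapped, and d12 and d25 differed within a cell type by at most 0.05 on the log2 scale. TFH cells were 3.86-fold above naïve cells (1.95, SE 0.08, adjusted p = 0.000207) and TFR cells 1.87-fold above Treg cells (0.90, SE 0.08, adjusted p = 0.00229). A second probe at 134477064 to 134477123 gave 1.965 and 0.93. With the mean of all 3 Itgal probes, the third of which was well above background on 2 arrays, the values were 1.25 and 0.33, and the latter did not pass (adjusted p = 0.0668). TFR cells were 1.55-fold below TFH cells (-0.635, SE 0.08, adjusted p = 0.00824), a call lost without the d12 TFR array (-0.60, adjusted p = 0.0774) and without the d25 TFR array (-0.67, adjusted p = 0.0605). Treg cells were 1.33-fold above naïve cells (0.41, SE 0.08, adjusted p = 0.0437), which was lost when any of the 8 arrays was left out (0.39 to 0.44), with slide as a block (0.38) and with 75th percentile scaling alone (0.37).

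Itgb2, the β chain common to the leukocyte integrins, varied least. It was 21737 and 24813 RU in naïve, 30677 and 34030 RU in TFH, 25506 and 27899 RU in Treg and 21505 and 23841 RU in TFR cells. Its TFH arrays were the highest, and its TFR and naïve arrays overlapped. TFH cells were 1.39-fold above naïve cells (0.48, SE 0.08, adjusted p = 0.00807), a call lost without the d12 naïve array (0.45, adjusted p = 0.0607). TFR minus Treg was -0.24 (95% CI -0.44 to -0.03, adjusted p = 0.0676). TFR cells were 1.43-fold below TFH cells (-0.51, SE 0.08, adjusted p = 0.0137), which was lost without the d12 TFR array (-0.52, adjusted p = 0.1), without the d25 TFR array (-0.51, adjusted p = 0.094) and with slide as a block (-0.50). The difference within d12 was also -0.51.

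Itgb3, the β chain of the vitronectin receptor, had the widest range among the chains that were well above background on all arrays, 47.3-fold between cell type means, and 1.05% of the genes tested had a wider range. Its probe lies on chromosome 11 at 104531672 to 104531731 (NCBI37, plus strand). Naïve cells had 19935 and 19186 RU and Treg cells 10878 and 9810 RU. TFR cells had 2092 and 1241 RU and TFH cells 406 and 422 RU. The 4 cell types did not overlap, with naïve cells highest and TFH cells lowest. TFH cells were 47.3-fold below naïve cells (-5.56, SE 0.215, adjusted p = 0.000187) and TFR cells 6.41-fold below Treg cells (-2.68, SE 0.215, adjusted p = 0.00179), both calls being kept under all alternatives run. TFR cells were 3.89-fold above TFH cells (1.96, SE 0.215, adjusted p = 0.00567). The other probe, at 104528625 to 104528684, read 463 and 410 RU in naïve and 292 and 244 RU in Treg cells, and was not well above background in TFH (23 and 20 RU) or TFR cells (55 and 43 RU), so that it gives no size for these differences. Treg minus naïve was -0.92 (95% CI -1.48 to -0.36, adjusted p = 0.0673). Platelets carry β3 with αIIb, and 0 of 6 platelet markers was well above background on any array, with Itga2b and Gp9 at the floor throughout. Any part of platelets in the Itgb3 levels was not tested.

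Itgav, the α chain that pairs with β3, had a dim probe. Its probe lies on chromosome 2 at 83646133 to 83646192 (NCBI37, plus strand). It measured 194 and 255 RU in naïve, 297 and 715 RU in TFH, 335 and 619 RU in Treg and 461 and 983 RU in TFR cells. The d25 array was above the d12 array in all 4 cell types, and TFH, Treg and TFR arrays overlapped. TFH cells were 2.07-fold above naïve cells (1.05, SE 0.22, adjusted p = 0.017). That difference was 0.615 within d12 and 1.485 within d25, and its call was lost without the d25 naïve array (0.71, adjusted p = 0.0501), without the d25 TFH array (0.81, adjusted p = 0.0752), without a day term (adjusted p = 0.204) and with another probe at 83643905 to 83643964 (0.50, adjusted p = 0.203). TFR minus Treg was 0.56 (95% CI -0.01 to 1.14, adjusted p = 0.103) and Treg minus naïve 1.03 (95% CI 0.46 to 1.61, adjusted p = 0.0553). TFR minus TFH was 0.55 (adjusted p = 0.147). The probes disagreed on TFR cells. With the other probe, TFR cells were called higher than Treg cells (1.355) and than TFH cells (1.383). That probe read 169 and 252 RU in TFR, 67 and 97 RU in Treg and 58 and 108 RU in TFH cells. Thus Itgav and Itgb3 differed from naïve cells in opposite directions in TFH cells.

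Itgb4, the β chain that pairs with α6 in epithelia, had a probe that was dim on every array. Its probe lies on chromosome 11 at 115869666 to 115869725 (NCBI37, plus strand). It read 80 and 75 RU in naïve cells, not well above background, 85 and 79 RU in Treg, 135 and 109 RU in TFR and 192 and 154 RU in TFH cells. TFH and TFR arrays lay above all naïve and Treg arrays, which overlapped. TFH cells were called higher than naïve cells (1.145, SE 0.10, adjusted p = 0.00134), the value falling to 0.51 after normexp background correction. TFR cells were 1.47-fold above Treg cells (0.56, SE 0.10, adjusted p = 0.0143) and lay below TFH cells (-0.51, SE 0.10, adjusted p = 0.0296). The former call was lost without the d12 Treg array (0.49), the d12 TFR array (0.49), the d25 Treg array (0.63) or the d25 TFR array (0.625), and after normexp (0.21). The latter was lost without any of the 8 arrays (-0.58 to -0.43), after normexp (-0.27), and with slide as a block (adjusted p = 0.125), without day, without the filter or with an intensity trend in the prior. Epithelial markers summed to 1621 and 2038 RU in TFR cells against 259 to 674 RU in the others, with 1 to 2 of 5 well above background per array and Krt8 at the floor on all. Their part in the Itgb4 and Itga6 values was not tested.

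**Figure D3:**
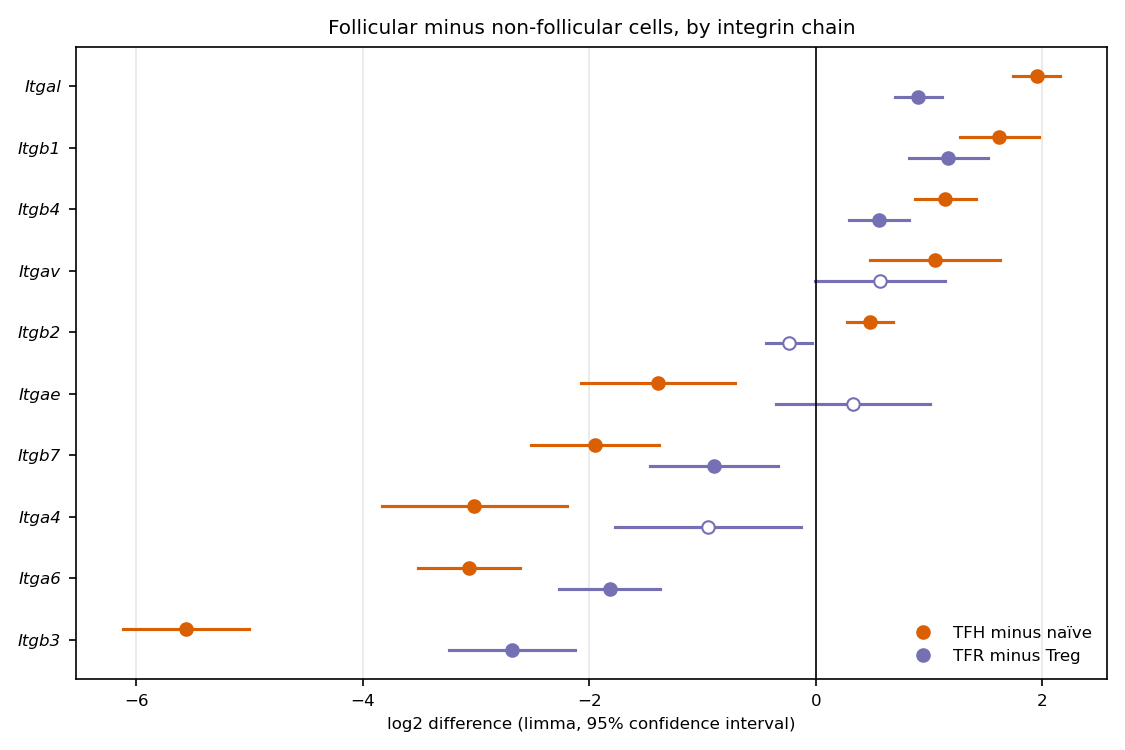
Log2 differences between TFH and naïve cells and between TFR and Treg cells for each chain (points, filled where adjusted p is below 0.05) with 95% confidence intervals from limma. The difference is nearer 0 in TFR cells for most chains, from -5.56 against -2.68 for Itgb3 to 1.95 against 0.90 for Itgal. Itga4, Itgae, Itgav and Itgb2 (-0.24) were not called in TFR cells. The TFH point of Itgae is a fitted value between cells that were not both well above background.

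Whether a follicular difference was of another size in Foxp3+ cells was tested directly, as TFR minus Treg minus the difference of TFH from naïve cells. It was called for 4 chains, 2 positive (Itgb3, Itga6) and 2 negative (Itgal, Itgb2), against 8.49% of all genes (4.03% positive and 4.46% negative). For Itgb3 the difference of differences was 2.88 (SE 0.30, adjusted p = 0.0116), being 3.24 within d12 and 2.52 within d25. For Itgal it was -1.05 (SE 0.11, adjusted p = 0.0123), being -1.06 and -1.04. It was -0.71 for Itgb2 (SE 0.11, adjusted p = 0.0276) and 1.24 for Itga6 (SE 0.24, adjusted p = 0.0483). These calls rested on single arrays. That of Itgb3 was lost without either naïve or either Treg array (2.77 to 2.995, adjusted p up to 0.0788), that of Itgal without any naïve, Treg or TFR array (-1.08 to -1.015, adjusted p up to 0.0793), and those of Itgb2 (adjusted p up to 0.131) and Itga6 (adjusted p up to 0.197) without any of the 8 arrays. The Itgb2 call was also lost with slide as a block or without day, and the Itga6 call under 14 of 21 alternatives, among them slide, no day, a robust prior, all spots kept and the authors' table (1.17, adjusted p = 0.0537). For Itga4 (2.06, 95% CI 0.91 to 3.22, adjusted p = 0.0603) it did not pass, nor for Itgae (adjusted p = 0.0603), which has no size here because TFH and naïve cells were not both measured.

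No chain was called between d25 and d12 by limma, where 0.0698% of all genes were called (0.019% higher and 0.0507% lower), while 4 chains had an unadjusted p below 0.05. The largest day difference in the mean over cell types was that of Itgav (0.91, 95% CI 0.50 to 1.32, adjusted p = 0.0716), followed by Itgae (0.90, 95% CI 0.42 to 1.38, adjusted p = 0.0817). Day and slide cannot be told apart here.

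The genes whose levels ran most closely with a chain over the 8 arrays were listed for the 3 chains with the widest ranges among those well above background on all arrays, which leaves out Itgae, as a description over arrays that share slides. For Itgb3 these were Trmt1, a tRNA methyltransferase (Pearson r = 0.9982), Nsmce1, a subunit of the SMC complex that acts in DNA repair (0.9962), and Gpr18, a G protein-coupled receptor (0.9945). For Itga6 they were Relt, a member of the TNF receptor family (0.996), a transcript with only an Ensembl identifier (0.9956) and Lfng, a glycosyltransferase that modifies Notch (0.9919). For Itga4 they were Slfn8 (0.9975), the tetraspanin gene Cd37 (0.9961) and a probe without a gene name (0.995). Among the chains themselves, the arrays ordered Itgal opposite to Itgb3 (r = -0.996) and Itga6 parallel to Itgb3 (0.973). Itga4 and Itgb7 had r = 0.882.

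Whether an integrin binds depends on proteins that act on its cytoplasmic tails. Talins and kindlins open the receptor, the small GTPase Rap1 recruits them, and guanine nucleotide exchange factors and GTPase activating proteins switch Rap1 on and off. Of 33 listed activators, adaptors and inhibitors, 29 were tested. In TFH versus naïve cells 9 were higher and 9 lower, with a median of 0.10, and in TFR versus Treg cells 8 were higher and 12 lower, with a median of -0.25, where 46.5% and 39.6% of all genes were called. In the latter comparison the counts fell to between 3 and 5 higher and between 5 and 6 lower when a Treg or a TFR array of either day was left out. The talin gene Tln1 was called in neither comparison (adjusted p = 0.475 and 0.965), and the hematopoietic kindlin gene Fermt3 was not called in TFH cells (0.08, adjusted p = 0.504) but fell by 0.50 in TFR cells (adjusted p = 0.0136, lost without any Treg or TFR array, where it reached 0.09). Both were chosen after their values were seen.

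Asb2, the part of a ubiquitin ligase that targets filamins, and Plxnd1, a semaphorin receptor, were higher in follicular cells. They, Rasgrp2 and Rasa3 were chosen because the authors had named them as regulated modulators of integrin activity, from data that include these arrays. Their calls, and their part in the counts above, are therefore no independent support. For Asb2 the authors described the rise in cells of Peyer's patches, mainly in TFR cells, and those cells were not analysed here. Asb2 had 20 and 58 RU in naïve cells, not well above background, 10521 and 13039 RU in TFH, 131 and 112 RU in Treg and 2222 and 2071 RU in TFR cells. Plxnd1 had 516 and 735 RU in naïve, 10621 and 12222 RU in TFH, 1759 and 1787 RU in Treg and 4931 and 5252 RU in TFR cells. For both genes the arrays of the 4 cell types were apart, with TFH cells highest. Asb2 was at least 186-fold higher in TFH than in naïve cells (adjusted p = 0.000336) and higher in TFR than in Treg cells by 4.15 on the log2 scale (SE 0.45, adjusted p = 0.00358). Plxnd1 was higher by 4.21 (SE 0.14, adjusted p = 0.00016) and 1.52 (SE 0.14, adjusted p = 0.00256). The difference of differences was called for Plxnd1 (-2.69, adjusted p = 0.00564) under all alternatives run, and for Asb2, where it has no exact size because naïve cells were not well above background, the call (adjusted p = 0.0252) was lost without any TFH, Treg or TFR array (largest adjusted p 0.136 over all alternatives).

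Rasgrp2, the Rap1 exchange factor of blood cells, and Rasa3, a GTPase activating protein for Rap1 and Ras, were lower in follicular cells. Rasgrp2 had 30668 and 27422 RU in naïve, 1946 and 1543 RU in TFH, 16008 and 14424 RU in Treg and 4372 and 2179 RU in TFR cells. Rasa3 had 66176 and 73179 RU in naïve, 13821 and 12174 RU in TFH, 57680 and 58510 RU in Treg and 22788 and 19363 RU in TFR cells. Naïve arrays were highest and TFH arrays lowest for both, without overlap. By limma, TFR minus TFH was 0.83 for Rasgrp2 and was not called (adjusted p = 0.0673). For Rasa3 it was 0.695 (adjusted p = 0.0212), a call lost under 8 of 20 alternatives. Rasgrp2 fell by 4.065 in TFH cells (SE 0.24, adjusted p = 0.00042) and fell by 2.30 in TFR cells (SE 0.24, adjusted p = 0.00317), and Rasa3 by 2.42 (SE 0.12, adjusted p = 0.000305) and 1.47 (SE 0.12, adjusted p = 0.00204). Their differences of differences, 1.765 for Rasgrp2 (adjusted p = 0.0439) and 0.96 for Rasa3 (adjusted p = 0.0417), were lost without any array but the d25 TFR array for Rasgrp2, and without any of the 8 arrays for Rasa3 (adjusted p up to 0.182 and 0.173 over all alternatives).

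**Figure D4:**
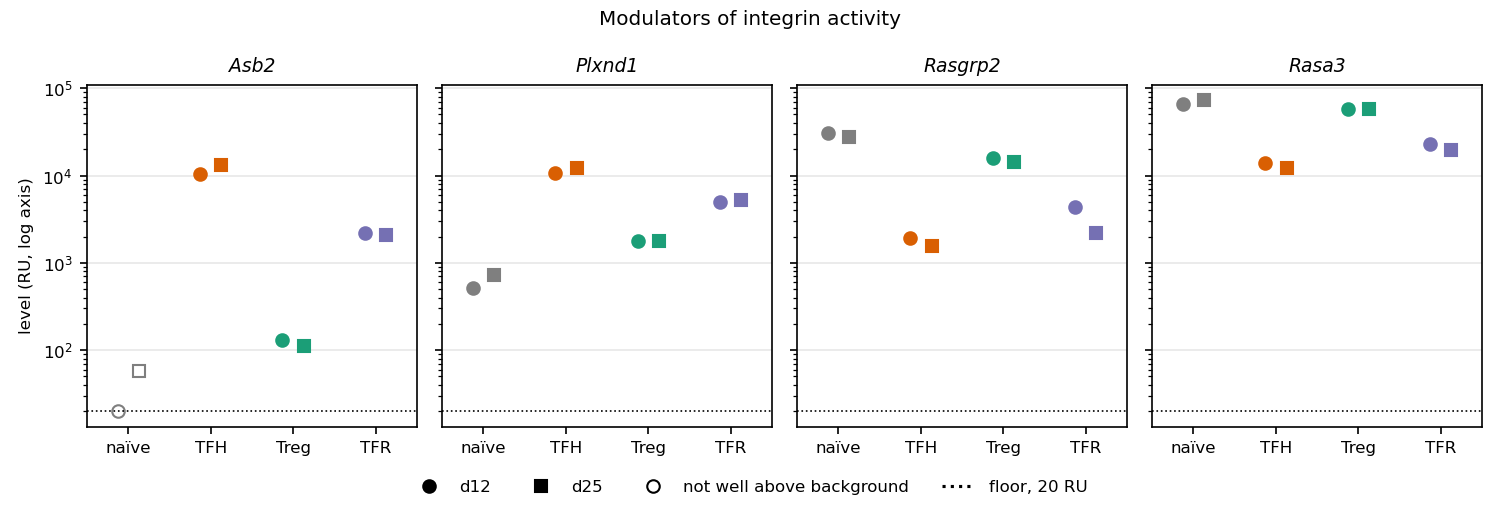
Levels of Asb2, Plxnd1, Rasgrp2 and Rasa3 (RU, log axis) on each array, with circles for d12, squares for d25 and hollow points where the probe was not well above background. TFH cells are highest for Asb2 (10521 and 13039 RU) and Plxnd1 and lowest for Rasgrp2 (1946 and 1543 RU) and Rasa3, and TFR cells lie between Treg and TFH cells in each panel.

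Other activators were named by the size of their change. Rap1gap, which switches Rap1 off, was at least 5.4-fold higher in TFH than in naïve cells (adjusted p = 0.00187) and at least 4.37-fold higher in TFR than in Treg cells (adjusted p = 0.00321), reading 20 to 33 RU in naïve and Treg cells. Rapgef6, a Rap1 exchange factor, fell by 1.46 in TFH cells (adjusted p = 0.00262) and by 1.26 in TFR cells (adjusted p = 0.0057).

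**Figure D5:**
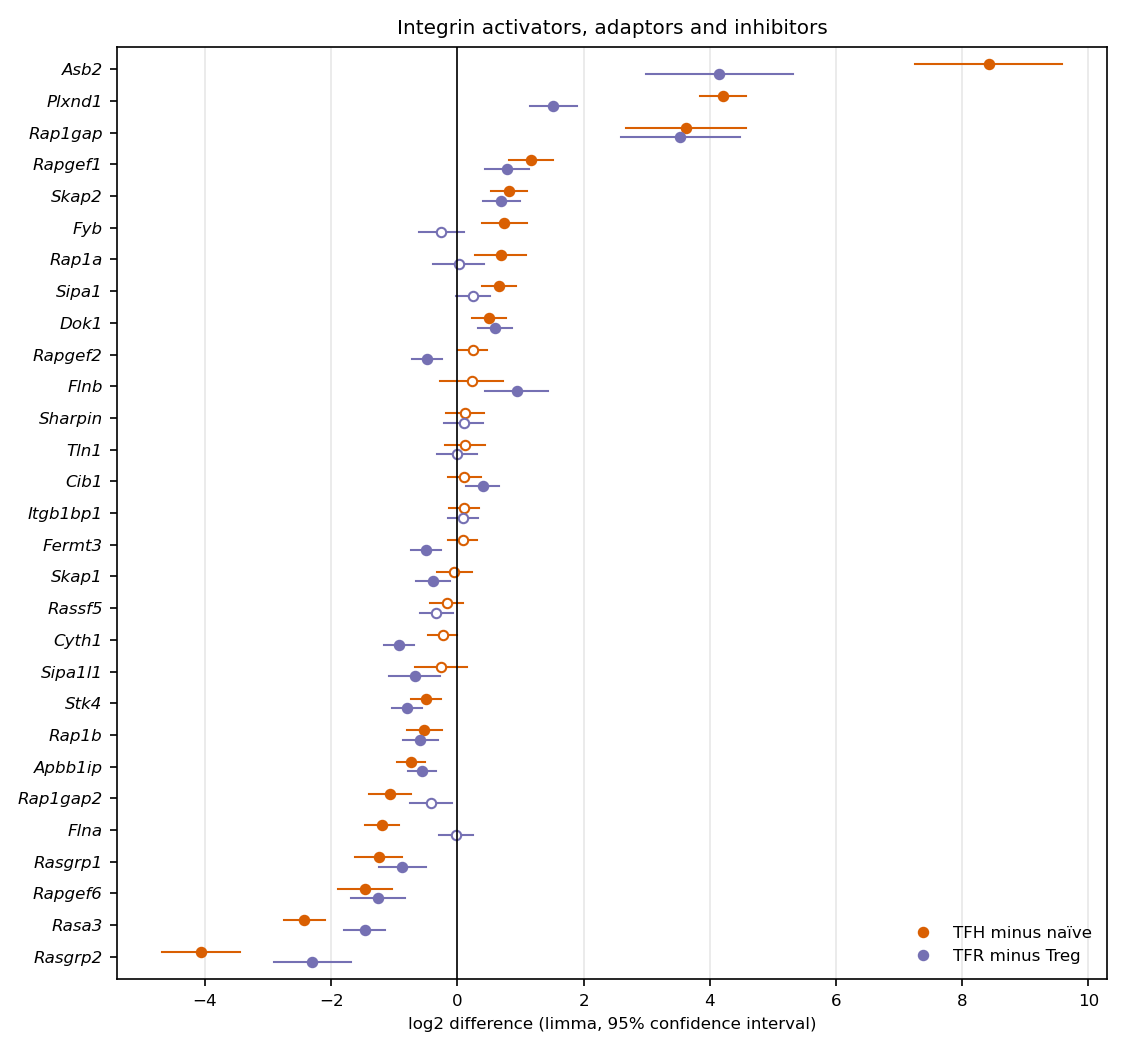
Log2 differences of the 29 tested activators, adaptors and inhibitors between TFH and naïve cells and between TFR and Treg cells, with 95% confidence intervals from limma and filled points where adjusted p is below 0.05. The points of Asb2 and Rap1gap are fitted values against cells that were not well above background, except Asb2 in TFR versus Treg cells (4.15), and Rasgrp2 lies lowest in both comparisons (-4.065 and -2.30).

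Of 34 genes for adhesion signaling downstream of integrins, 30 were tested, with 10 higher and 3 lower in TFH versus naïve cells and 5 higher and 10 lower in TFR versus Treg cells, beside 46.5% and 39.6% of all genes called in these comparisons. These counts depended on single arrays. Fewer genes were called higher in TFH cells whichever single array was left out. Fewer were called lower in TFR cells without either naïve array. Without either Treg or either TFR array, fewer were called higher and fewer lower in TFR cells. Lpxn, a paxillin relative of leukocytes, was higher in TFH cells by 1.96 (SE 0.08, adjusted p = 0.000212) and in TFR cells by 0.82 (SE 0.08, adjusted p = 0.00301), with 6527 and 6647 RU in naïve and 25234 and 25940 RU in TFH cells. Actn1, the actin cross-linker α-actinin, fell by 3.55 in TFH cells (adjusted p = 0.0003) and by 2.36 in TFR cells (adjusted p = 0.0016), from 2424 and 2669 RU in naïve to 263 and 180 RU in TFH cells. Zap70, the kinase of the T cell receptor, was higher by 1.26 (adjusted p = 0.00109) and 0.72 (adjusted p = 0.00781), and Tes, a focal adhesion protein, fell by 1.14 in TFH cells (adjusted p = 0.000811). The Zap70 call in TFR cells was lost without the d12 TFR, d25 Treg or d25 TFR array (adjusted p up to 0.0606). The adaptor Bcar1 was at least 1.76-fold higher in TFH cells (adjusted p = 0.0306) and at least 2.95-fold higher in TFR cells (adjusted p = 0.022), Dock2 fell by 0.63 in TFH cells (adjusted p = 0.0348), and paxillin, Pxn (at least 1.98-fold, adjusted p = 0.0398), and the focal adhesion kinase Ptk2 (-1.19, adjusted p = 0.03) were lower in TFR cells. Each of these calls was lost without at least 1 array. Bcar1 and Dock2 in TFH cells were lost without any naïve, TFH or Treg array, Bcar1 in TFR cells without either Treg array, and Pxn and Ptk2 without any naïve, Treg or TFR array (largest adjusted p 0.191).

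Of the 16 integrin chains beyond the 10, only 6 were tested and 10 were too dim, among them Itga5, Itga9, Itgax and Itgb8. In TFH versus naïve cells 2 were higher and 2 lower, and in TFR versus Treg cells 4 were higher and 1 lower, beside 46.5% and 39.6% of all genes called. Chains given below as bounds passed the filter on dim probes through brighter cell types, so these counts are not independent of that filter. Itgb5, another partner of αv, read 43 and 20 RU in naïve, 752 and 587 RU in TFH, 42 and 70 RU in Treg and 1375 and 1820 RU in TFR cells. The follicular arrays were apart from the others, at least 11.4-fold higher in TFH than in naïve cells (adjusted p = 0.00193) and at least 25-fold higher in TFR than in Treg cells (adjusted p = 0.00263), under all alternatives run in which the gene was tested. Itga11, a collagen receptor chain, reached 139 and 230 RU in TFR cells, at least 3.37-fold above Treg cells (adjusted p = 0.0019). Itga3, also called higher in both comparisons, did not exceed 78 RU, and its call in TFH cells was lost with a floor of 50. Itga1, another collagen receptor chain, was at least 3.69-fold lower in TFH than in naïve cells (adjusted p = 0.00826), and was not well above background in Treg or TFR cells, where it was the chain called lower in TFR cells (adjusted p = 0.0407). That call lies between unmeasured cell types and was lost under 9 of 19 alternatives, among them a floor of 50 (adjusted p = 0.597), normexp, slide as a block and leaving out either TFH array, either TFR array or the d25 Treg array. Itgam was called lower in TFH cells (-0.51, adjusted p = 0.0208, lost without the d12 naïve, d25 naïve, d12 TFR, d25 TFR or d25 TFH array), but its brightest probe, reading 13020 to 28504 RU, contains a simple repeat of 20 bases, while its other probes did not exceed 82 RU.

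The ligands that integrins bind were mostly dim in these cells, 13 of 27 being tested, with 5 higher and 3 lower in TFH versus naïve cells and 7 higher and 1 lower in TFR versus Treg cells. Of all genes 20.9% were higher and 25.6% lower in the former comparison, and 18.7% and 20.9% in the latter. Ligands given below as bounds passed the filter on dim probes through brighter cell types, not through the dimmer cell type of the comparison. The counts are therefore not independent of that filter, which applied to all genes. Without either Treg or either TFR array the 7 became 2 to 3, and the 3 became 1 without any naïve or Treg array or the d25 TFH array. Spp1, which encodes osteopontin, was at the floor in naïve and Treg cells and had 448 and 1460 RU in TFH cells, at least 13.9-fold higher (adjusted p = 0.00113), and 111 and 176 RU in TFR cells, at least 2.64-fold higher (adjusted p = 0.00988, lost without the d12 TFR, d25 Treg or d25 TFR array). Tgfb3, whose latent form αv integrins bind, had 254 and 181 RU in naïve and 2432 and 1774 RU in TFH cells (3.28, SE 0.21, adjusted p = 0.000532). The laminin chain Lamc1 was at least 8.34-fold higher in TFH cells (adjusted p = 0.0014), and Vcam1, a ligand of α4β1, was at least 8.42-fold higher in TFR than in Treg cells (adjusted p = 0.00347), with 352 and 834 RU in TFR cells. Col1a1 was at least 4.47-fold higher in TFR cells (adjusted p = 0.016), a call lost without any Treg or TFR array (with an adjusted p of up to 0.103). Icam2, a ligand of LFA-1, fell by 0.615 in TFH cells (adjusted p = 0.00562) and by 0.81 in TFR cells (adjusted p = 0.00379). The falls of the laminin chains Lama5 (-0.78, adjusted p = 0.0425) and Lama3 (-0.27, adjusted p = 0.0486) in TFH cells were lost without any naïve, TFH or Treg array, and that of Lama3 also without either TFR array (adjusted p up to 0.221).

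All 12 genes for membrane proteins that associate with integrins were tested. In TFH versus naïve cells 3 were higher and 3 lower, and in TFR versus Treg cells 3 were higher and 2 lower, beside 46.5% and 39.6% of all genes called. The tetraspanin gene Cd82 was higher by 1.79 in TFH cells (SE 0.12, adjusted p = 0.000626) and by 1.24 in TFR cells (SE 0.12, adjusted p = 0.00285), and Cd47, the receptor for thrombospondin that accompanies β3 integrins, fell by 1.09 in TFH cells (adjusted p = 0.00141) and by 0.915 in TFR cells (adjusted p = 0.00362). Thy1 fell by 2.02 (adjusted p = 0.00232) and Cd226, which associates with LFA-1, by 1.485 (adjusted p = 0.00359) in TFH cells. The tetraspanin gene Cd81 was higher in TFR cells by 1.504 (adjusted p = 0.00436) and in TFH cells by 0.775 (adjusted p = 0.0214), the latter being lost without the d12 naïve, d25 naïve or d25 TFH array (adjusted p up to 0.116). Cd63, higher in TFR cells by 1.83 (adjusted p = 0.0194), was lost without any Treg or any TFR array (largest adjusted p 0.123). Cd9, which was higher in TFH cells (0.32, adjusted p = 0.0456) and lower in TFR cells (-0.39, adjusted p = 0.0294), was lost in TFH cells without any of the 8 arrays and in TFR cells without any Treg or TFR array (largest adjusted p 0.227).

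Transforming growth factor β induces αE in T cells through Smad proteins, and Runx3 acts with them at that gene. Of 10 listed genes of this route 9 were tested. In TFH versus naïve cells 0 were higher and 3 lower, and in TFR versus Treg cells 0 higher and 4 lower. Of all genes, 25.6% and 20.9% were called lower in these comparisons. In TFR versus TFH cells 4 were higher and 1 lower, beside 11.6% and 10.5% of all genes. In Treg versus naïve cells 2 were higher and 0 lower, beside 5.89% and 3.98%. The list includes Lrrc32, which is also among the Treg markers. Smad7, the inhibitory Smad that the pathway itself induces, had 3421 and 3675 RU in naïve, 132 and 126 RU in TFH, 3343 and 3663 RU in Treg and 1332 and 1436 RU in TFR cells. It fell by 4.785 in TFH cells (SE 0.09, adjusted p = 8.21e-05) and by 1.34 in TFR cells (SE 0.09, adjusted p = 0.00129), with follicular arrays apart from the others. Runx3 had 1248 and 1169 RU in naïve and 240 and 105 RU in TFH cells (-2.93, SE 0.30, adjusted p = 0.00202), and 1360 and 1017 RU in TFR cells. Smad4, the shared Smad, fell by 0.74 (adjusted p = 0.00257) and by 0.655 (adjusted p = 0.00524). In TFR cells Tgfbr2, a receptor chain, fell by 0.84 (adjusted p = 0.0133), a call lost without the d12 Treg, d12 TFR or d25 TFR array (adjusted p up to 0.0943).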

How the data were processed

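RNA of TFH, TFR, Treg and naïve CD4 T cells sorted from pLN at d12 and d25 p.i. was hybridized to 8 one-color Agilent arrays. Per the labels, 25 ng of RNA was used per array, and spots were extracted with Agilent Feature Extraction 10.7.3.1. Deposited were the intensity of each spot and normalized intensity values that the authors had made from them. Their steps were rerun here from the spots. Flagged spots, spots outside 1.42 times the interquartile range of the 4 spots of a probe and spots with pixel variation above 0.5 were removed, which left 86.4% to 89.2%. Spots were then averaged as the geometric mean, quantile normalized, scaled to 1500 at the 75th percentile and floored at 20. The log2 values correlated with those of the authors' table with r of at least 0.999 on each array. The levels were not identical, which a correlation cannot show. Half-way offsets (medians, log2) from that table were 0 in general and 0.511 among the brightest 1% of probes, which read higher here. In naïve cells at d12, Itgb7 had 96421 RU here and 74209 RU in the authors' table. The dim Itgae probe went the other way, with 53 RU here and 65 RU there.

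Of 29924 gene names, 15764 were tested because, for at least 1 cell type, the brightest probe exceeded background well at both days. Differences were fitted with limma 3.58.1 in R 4.3.3 on log2 values with cell type and day as terms (3 residual degrees of freedom, prior 1.89) and Benjamini-Hochberg adjustment. The number of arrays limits the precision. The fit was tested on simulated data drawn from the model itself, with independent normal noise and the fitted day shift. That run cannot show how slide effects or day changes particular to a cell type act on the p-values. The methods' one-way comparison has no replicate per cell type and day here, and the fit without day stands for it. From each list, up to 3 called genes per direction were named. Members, lists and tests were chosen with earlier results of these data known. Alternatives concerned scaling, background, spots, filter, floor, probes, slide, day, prior and single arrays. Upstream sequences are from RefSeq (GRCm38.p6), whose table matched 9 of the 10 probe accessions and held 4 of the 10 genes, and were used without joining them to the NCBI37 positions of the probes. Cells from Peyer's patches were not analysed here.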

Additional observations from a re-analysis of the deposited data

Results flagged for a closer look

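For 4 chains, the difference between TFR and Treg cells was of another size than that between TFH and naïve CD4 T cells by limma's test of the difference itself. The difference of differences on the log2 scale was 2.88 for Itgb3, 1.24 for Itga6, -1.05 for Itgal and -0.71 for Itgb2. Itgb3 fell by 5.56 in TFH and by 2.68 in TFR cells, and Itga6 fell by 3.06 and by 1.82. Itgal was higher by 1.95 and 0.90, whereas Itgb2 was 0.48 in TFH and -0.24 in TFR cells, the latter not called. With the other Itga6 probe the difference of differences was 1.60. These calls were lost under 14 of 21 alternatives for Itga6, 10 of 20 for Itgb2, 6 of 21 for Itgal and 5 of 21 for Itgb3.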

How the results depend on the processing

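Of the log2 differences of the 10 chains under all alternatives, 1394 kept their direction and side of the threshold, 140 lost and 46 gained a call, and 24 changed direction. The only called difference that turned was TFR versus Treg for Itga6, which was 0.06 (0.064) with its other probe. The rest were uncalled. For Itgal d25 versus d12 was 0.004 after normexp, 0.011 without either naïve array, 0.008 without either TFH array and 0.009 with its other probe, and for Itgb7 it was 0.003 without either TFH array, the other end of their ranges without single arrays being -0.018 and -0.263. For Itga6 d25 versus d12 was 0.26 with the other probe. Treg versus naïve was -0.277 with the mean of probes, -0.031 without the d12 Treg and -0.126 without the d25 naïve array for Itga4, and -0.082 with the mean of probes, -0.042 without the d12 naïve array, -0.038 without the d12 Treg array and -0.346 with the other probe for Itga6. TFH versus Treg for Itgav was -0.006 with the mean of probes, -0.222 without the d25 TFH array, -0.002 without the d25 Treg array and -0.028 with the other probe, its difference of differences being 0.183 with the mean of probes and 0.851 with the other probe. TFR versus Treg for Itgae was -0.123 without the d25 Treg array. The uncalled differences of Tln1 also turned, to 0.025 with all spots and 0.016 with the mean of probes in TFR versus Treg cells (-0.045 to 0.028 without single arrays), and to -0.033 without the d12 TFH and -0.008 without the d12 naïve array in TFH versus naïve cells. Without other single arrays these differences, uncalled in the main analysis, reached 0.428 for Itga4 and 0.404 for Itga6 in Treg versus naïve cells. They reached 0.254 for Itgav in TFH versus Treg cells and 0.774 for Itgae in TFR versus Treg cells. The last was called in that fit, without the d12 Treg array.

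Of the counts of called chains 192 stayed within 1.5 times and 44 did not. Leaving out single arrays gave 2 to 6 chains higher and 0 to 2 lower in TFR versus TFH cells (6 and 3 with all arrays), 1 to 2 higher and 0 to 1 lower in Treg versus naïve cells (3 and 0), and 0 to 3 positive and 0 to 1 negative differences of differences (2 and 2). Where a cell type kept 1 array, that array was assumed to vary like the other cell types. In TFR versus TFH cells 2 were higher without the filter on dim probes, and 1 was lower with slide as a block or without day. In Treg versus naïve cells 1 was higher with slide as a block, and 1 was lower with 75th percentile scaling, normexp, the mean of probes or an intensity trend. In TFR versus Treg cells 5 were lower with the trend. For d25 versus d12, 1 was higher after normexp, 1 when probes had to be well above background on all arrays and 2 with the trend. Positive differences of differences numbered 1 with the authors' table, with all spots, with slide, without day and with a robust prior, 0 without the filter and 4 with the trend, and negative ones 1 with slide and without day. The causes were not tested.

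Over all genes, slide as a block moved the calls in TFR versus TFH cells from 1834 to 765 higher and from 1652 to 584 lower, and in Treg versus naïve cells from 929 to 370 and from 628 to 153. Without the filter these were 881, 768, 408 and 294, and 1894 genes instead of 3301 were lower in TFR versus Treg cells. Without day 1974 were lower there, 987 in TFR versus TFH and 358 in Treg versus naïve cells. Differences of differences went from 636 positive and 703 negative to 208 and 210 without the filter, 304 and 387 with slide, and 372 and 435 without day. For d25 versus d12, 3 genes were higher and 8 lower in the main analysis, against 524 and 331 after normexp, 508 and 311 for probes well above background on all arrays, 689 and 406 with the trend and 0 and 0 with the mean of probes. Signal over background limits Itgae in naïve and TFH cells and Itgb4 in naïve cells. The Itgb4 probe was well above background but dim in the other cell types. The day term is itself a replicate block, since the replicate number is the day, and the fit without it is the unpaired one. Unpaired, 4 chains were higher and 4 lower in TFH versus naïve cells instead of 5 and 5, the calls of Itgav (adjusted p = 0.204) and Itgae (adjusted p = 0.113) being lost, and 2 instead of 3 were higher in TFR versus Treg and in Treg versus naïve cells. Nothing in the labels says that arrays of a day share animals.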
